A study of Mus musculus with 6 samples.

Results

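The genes described here are the translation initiation factors (eIF) and elongation factors (eEF) of the mouse, taken as every symbol that begins with Eif followed by 1 to 6 or with Eef followed by 1 or 2. The eIF2 kinases, annotated pseudogenes and 1 gene that is not protein-coding were left out, which gave 62 genes of 32739 in the deposited tables. Of these, 50 are initiation factors or their direct regulators and 12 are elongation factors or enzymes that modify them. RNA-seq was made from HL-1 cells, a line of mouse atrial muscle cells grown in Claycomb medium, after 6 h of hypoxia and 1 h of reoxygenation. One group received vehicle and the other BRL (BRL37344, called a β3-adrenergic receptor agonist in the series) at 5 µM, with 3 libraries each, and all 6 libraries went through hypoxia and reoxygenation. The sources used here do not say at which moment BRL was given. No label says that libraries of a group were separate cultures, and the p-values therefore reflect how far these libraries vary among themselves, which can be technical variation alone.

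Cap-dependent translation begins when eIF4F, made of a cap-binding protein, a scaffold and an RNA helicase, brings a messenger RNA to the small ribosomal subunit. That subunit already carries eIF1, eIF1A, eIF3, eIF5 and the initiator tRNA held by eIF2, which needs eIF2B to exchange its spent GDP for GTP before each new round. Once the start codon is found and the large subunit has joined through eIF5B, eEF1A delivers aminoacyl-tRNAs and eEF2 moves the ribosome along. In heart muscle, as in other tissues, hypoxia is known to lower protein synthesis through phosphorylation of the α subunit of eIF2 and of eEF2, neither of which RNA-seq measures.

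Total expected counts ran from 4440168 to 5060049 in the vehicle libraries and from 6812810 to 8332472 in the BRL libraries, so depth differed between the groups without overlap. BRL replicate 1 stood apart from the other libraries. Transcripts of the mitochondrial genome took 5.03% of its counts against 16.5% to 21.9% in the other 5 libraries. Markers of cardiomyocytes were present in all libraries. Their summed level was 9161 to 9990.4 CPM (counts per 1000000, scaled to library size by the TMM method) in vehicle and 5740 to 6651 CPM in BRL. At an adjusted p under 0.05 in edgeR, 2 of the 10 fell and 0 rose, where 1.79% of all genes tested fell and 1.01% rose. A summed level of 3061 to 3455 CPM for 5 smooth muscle markers in vehicle stood against 1269 to 2643 CPM in BRL, lowest in BRL replicate 1, while none of the 4 tested passed. Markers of fibroblasts, endothelium and leukocytes summed to at most 6.32 CPM per list, with Dcn, Lum, Tcf21, Ptprc and Lyz2 at 0 counts throughout. The part of these differences in the results for translation factors was not tested, and in bulk RNA fewer cells of a type and less RNA per cell cannot be told apart.

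Translation factor transcripts made up 2.02%, 1.92% and 1.89% of all counts in vehicle replicates 1 to 3 and 2.80%, 1.94% and 1.96% in BRL replicates 1 to 3. BRL replicate 1 alone was high. Of the counts outside the mitochondrial genome, the same genes took 2.42%, 2.40% and 2.35% in vehicle and 2.95%, 2.49% and 2.45% in BRL, so on that base the groups did not overlap, although BRL replicates 2 and 3 lay close to vehicle. Eef1a1 alone, which encodes the main carrier of aminoacyl-tRNA, gave 32.1% to 33.7% of the translation factor counts in each library.

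Enough reads for the test were found for 59 of the 62 genes. Eif2s3y, the Y-linked form of the eIF2 γ subunit, and Eif4e1b, an eIF4E relative known from the germ line, had 0 counts in every library, where 3 counts would correspond to 0.367 to 0.673 CPM. Eef1akmt3, a methyltransferase of eEF1A, stayed at 0.402 to 1.68 CPM.

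With all 6 libraries in the fit, 2 of the 59 genes rose with BRL and 0 fell at an adjusted p under 0.05 (edgeR quasi-likelihood test, Benjamini-Hochberg over 12047 genes). Among all genes tested, 1.01% rose and 1.79% fell. The genes that rose were Eif2b4, the δ subunit of the exchange factor eIF2B, and Eef1d, a subunit of the exchange factor of eEF1A. At an unadjusted p under 0.05, 19 translation factors (32.2%) were higher and 1, Eif4a2, was lower, against 11.6% and 10.8% of all genes. DESeq2 called 7 translation factors higher and 0 lower, where it called 2.08% of all genes higher. Those 7 were Eef1d, Eef1g, Eif3d, Eif3g, Eif4a1, Eif4a3 and Eif5a, so Eef1d passed in both tools, while Eif2b4 did not pass in DESeq2 (adjusted p = 0.0603, and 0.00245 to 0.209 over all 16 other settings).

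The direction was more uniform than the calls. The fitted log2 fold change was above 0 for 46 of the 59 genes (78.0%) against 50.7% of all genes tested, with a median of 0.18 against 0.01 over all genes. Every BRL library lay above every vehicle library for 21 genes and below for 3, where the shares over all genes were 16.0% and 15.5%. BRL replicate 1 moved with these counts, as it was the highest of the 6 libraries for 41 genes (69.5%, against 30.2% of all genes) and the lowest for 7 (32.2% of all genes). The median gene lay 0.35 above the vehicle mean (log2) in BRL replicate 1 and 0.11 above it in both BRL replicates 2 and 3.

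**Figure D1:**
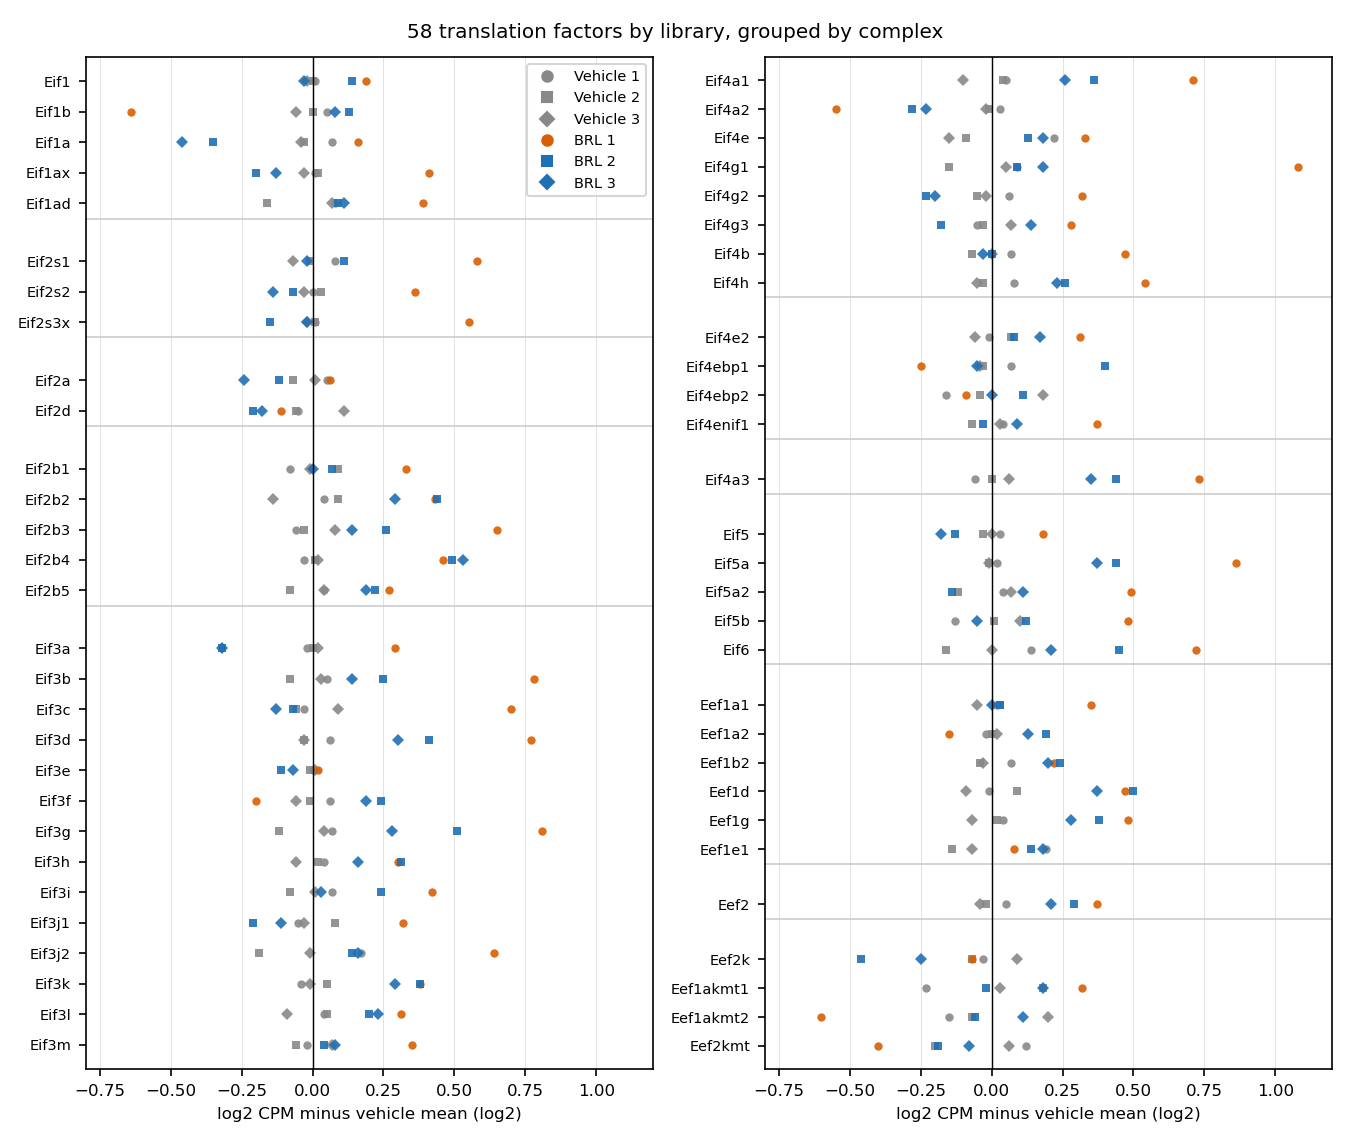
Each row is a translation factor, grouped by complex with lines between groups, and each point is a library placed by its log2 CPM minus the mean of the 3 vehicle libraries; Eif4ebp3, with 0 counts in BRL replicate 2, is left out. BRL replicate 1 (orange) lies farthest to the right in most rows, while Eif2b4, Eef1d and Eef2 have all 3 BRL libraries together to the right of vehicle.

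Leaving out BRL replicate 1 changed the picture in both directions. In that fit 16 of 58 genes passed as higher (27.6%, against 10.3% of all genes) and 5 as lower (8.62%, against 10.9% of all genes). A fold change above 0 was found for 40 of the 58 (69.0%, against 50.3% of all genes), and the median was 0.11. The 16 were Eef1b2, Eef1d, Eef1g, Eef2, Eif2b4, Eif3d, Eif3f, Eif3g, Eif3h, Eif3k, Eif3l, Eif4a1, Eif4a3, Eif4h, Eif5a and Eif6. The 5 that passed as lower were Eif1a, Eif3a, Eif4a2, Eif4g2 and Eef2k. Leaving out any 1 of the other 5 libraries gave 0 calls, with 10 to 20 genes higher and 1 lower at an unadjusted p under 0.05, so the number of calls changed with every library left out.

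**Figure D2:**
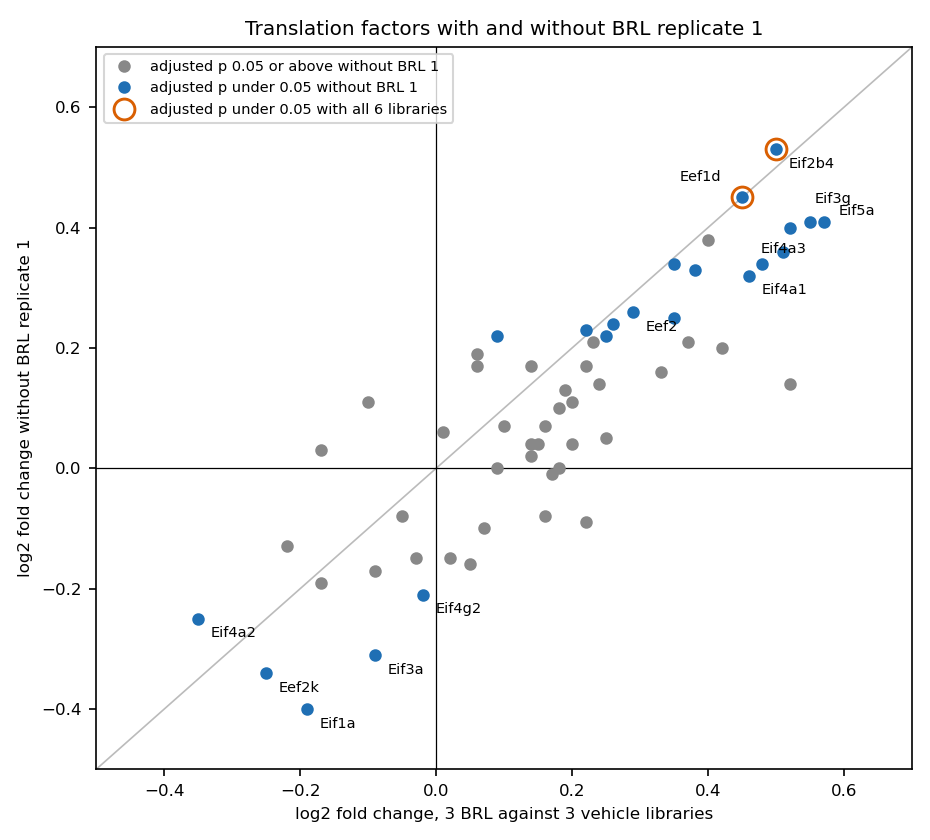
Each point is a translation factor, with its log2 fold change over all 6 libraries on the x axis and without BRL replicate 1 on the y axis; the grey line marks equal values, blue points passed adjusted p 0.05 without that library and the 2 ringed points passed with it. Eif2b4 and Eef1d sit near the line of equal values, whereas Eif4a1, Eif5a and many others lie below it.

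Among the factors that recognise the start codon, Eif1, which guards its selection, was the most abundant by reads. Its levels were 536, 531 and 525 CPM in vehicle and 604, 586 and 520.5 CPM in BRL, and the groups overlapped (log2 fold change 0.10 ± 0.10 SE, edgeR adjusted p = 0.58). Eif1ad, which encodes a protein with an eIF1A domain, had the smallest p of its group and stood at 67.5, 57.3 and 67.1 CPM in vehicle and 83.8, 68.3 and 69.0 CPM in BRL. Its BRL libraries all lay above vehicle, by little in replicates 2 and 3 (adjusted p = 0.359). Eif1a, a scanning factor, passed as lower without BRL replicate 1 only, with 189.9, 178 and 176 CPM in vehicle against 202, 142 and 131 CPM in BRL.

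The 3 tested subunits of eIF2, which carries the initiator tRNA, showed a median log2 fold change of 0.16 that came to −0.08 without BRL replicate 1. Eif2s1, the α subunit that stress kinases phosphorylate, was at 111, 105 and 100.3 CPM in vehicle and at 159, 114 and 104 CPM in BRL. Eif2s3x, the X-linked γ subunit, was at 378, 377 and 369.7 CPM in vehicle and at 547, 337 and 369 CPM in BRL. In both genes BRL replicate 1 alone was high, and neither passed (adjusted p = 0.389 and 0.631). Corrected for transcript length, Eif2s1 was the scarcest and Eif2s2, the β subunit, the most abundant in all 6 libraries, apart by 4.03-fold to 4.85-fold. Eif2a and Eif2d, which can bring initiator tRNA to the ribosome without eIF2, had fold changes of −0.09 ± 0.11 and −0.17 ± 0.10 (log2 ± SE). Eif2d lay lower in every BRL library, at 39.8, 37.2 and 38.0 CPM against 41.5, 41.1 and 46.4 CPM in vehicle, without passing (adjusted p = 0.378). For Eif2a the groups overlapped, at 169, 155 and 164 CPM in vehicle and 169, 149.8 and 138 CPM in BRL.

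In eIF2B, which recharges eIF2 with GTP, 1 subunit rose and the others had the same direction. All 5 of its subunits had a positive log2 fold change, with a median of 0.37. Of these, 4 were above vehicle in every BRL library, and the same number had an unadjusted p under 0.05 in edgeR. Among all genes tested, 16.0% lay above vehicle in every BRL library and 11.6% were higher at that unadjusted p. Eif2b4 was at 25.0, 25.6 and 25.8 CPM in the vehicle libraries and at 35.2, 36.1 and 36.9 CPM in the BRL libraries. The spread within either group was small beside the gap between them, and BRL replicate 1 was the lowest of its group. Its log2 fold change was 0.50 ± 0.10 SE (edgeR adjusted p = 0.0402). The fold change stayed between 0.49 and 0.54 over 16 other settings, of which 6 kept the adjusted p under 0.05 (range 0.00245 to 0.209). Eif2b4 shares exon sequence with Snx17 on the other strand, its counts are not whole, and the sources used here do not say if reads were counted by strand, so reads in the shared stretch cannot be told apart.

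The catalytic ε subunit, Eif2b5, stood at 86.1, 79.1 and 86.3 CPM in vehicle and at 101, 97.7 and 95.7 CPM in BRL, without overlap (log2 fold change 0.23 ± 0.09 SE, adjusted p = 0.194). Eif2b2 (β subunit) had 16.1, 16.8 and 14.2 CPM against 21.3, 21.5 and 19.3 CPM, and Eif2b3 (γ subunit) had 18.2, 18.5 and 20.1 CPM against 29.9, 22.7 and 20.9 CPM, vehicle first. Both kept their groups apart without passing (adjusted p = 0.134 and 0.221). Eif2b1, the regulatory α subunit, overlapped, with 63.9, 72.2 and 67.3 CPM in vehicle and 85.6, 71.1 and 67.6 CPM in BRL. Per length, Eif2b1 was the most abundant subunit in all 6 libraries, at 57.0 to 97.1 TPM (length-corrected transcripts per 1000000), while Eif2b2 or Eif2b3 was the scarcest. Without BRL replicate 1 the median of eIF2B was 0.21, and Eif2b4 was its only subunit to pass.

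The promoter of Eif2b4 is shown because the gene rose in all 3 BRL libraries by similar amounts. The window runs from 200 bases before the annotated start to 20 bases from it onward (RefSeq, GRCm38.p6, chr5:31193120-31193339, minus strand, written 5′ to 3′ along the gene), and capitals mark a core of the ETS family motif, CCGGAAG, at positions 2 to 8 with the start site as 1.
Eif2b4: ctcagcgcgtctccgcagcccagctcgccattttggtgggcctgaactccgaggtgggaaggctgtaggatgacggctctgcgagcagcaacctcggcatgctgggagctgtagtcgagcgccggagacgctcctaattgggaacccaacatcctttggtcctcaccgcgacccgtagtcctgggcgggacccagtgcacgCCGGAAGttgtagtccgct

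eIF3 is the largest initiation factor and the scaffold of the scanning complex. None of its 14 tested subunits passed in edgeR with all libraries, although DESeq2 called Eif3d and Eif3g higher. At an unadjusted p below 0.05 in edgeR, 6 were higher, against 11.6% of all genes. The log2 fold change was positive for 12 of 14, with a median of 0.24 that was 0.18 without BRL replicate 1. Eif3k had the smallest p, with 91.9, 98.0 and 94.3 CPM in vehicle and 123, 124 and 116 CPM in BRL. All its BRL libraries were close to each other and above vehicle (log2 fold change 0.35 ± 0.09 SE, edgeR adjusted p = 0.075).

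Eif3a, the largest subunit and the one with most reads, took the opposite course in 2 of 3 BRL libraries. Its levels were 934, 944 and 958 CPM in vehicle, 1154 CPM in BRL replicate 1 and 759 and 756 CPM in BRL replicates 2 and 3. Vehicle lay between the BRL libraries, and the log2 fold change of −0.09 ± 0.17 SE (adjusted p = 0.80) became −0.31 ± 0.06 SE without BRL replicate 1. Over the 16 other settings its adjusted p ran from 0.00442 to 0.969. Without BRL replicate 1, 6 subunits (Eif3d, Eif3f, Eif3g, Eif3h, Eif3k and Eif3l) passed as higher and Eif3a was the only one to pass as lower. The shares over all genes in that fit were 10.3% and 10.9%.

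Within eIF3, BRL replicates 2 and 3 were both above all vehicle libraries for 7 of 14 subunits and both below for 4, where the shares over all genes were 24.9% and 25.1%. The number below was thus near the share over all genes. Eif3g, which takes part in scanning, was at 92.8, 81.4 and 90.6 CPM in vehicle and at 155, 126 and 108 CPM in BRL. Eif3d, a subunit that can bind the cap itself in human cells, was at 129, 122 and 121 CPM in vehicle and at 212, 165 and 153 CPM in BRL. Both genes kept all BRL libraries above vehicle (log2 fold changes 0.55 ± 0.14 and 0.51 ± 0.13 SE, edgeR adjusted p = 0.0763 and 0.0776). Eif3f ran against BRL replicate 1, with 174 CPM there, 236 and 228 CPM in BRL replicates 2 and 3 and 192 to 209 CPM in vehicle. Corrected for length, the transcripts of eIF3 subunits spanned 22.4-fold to 27.6-fold within a library, with Eif3j1, 1 of a pair of genes for the loosely bound j subunit, the scarcest in all 6 (8.74 to 19.0 TPM).

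**Figure D3:**
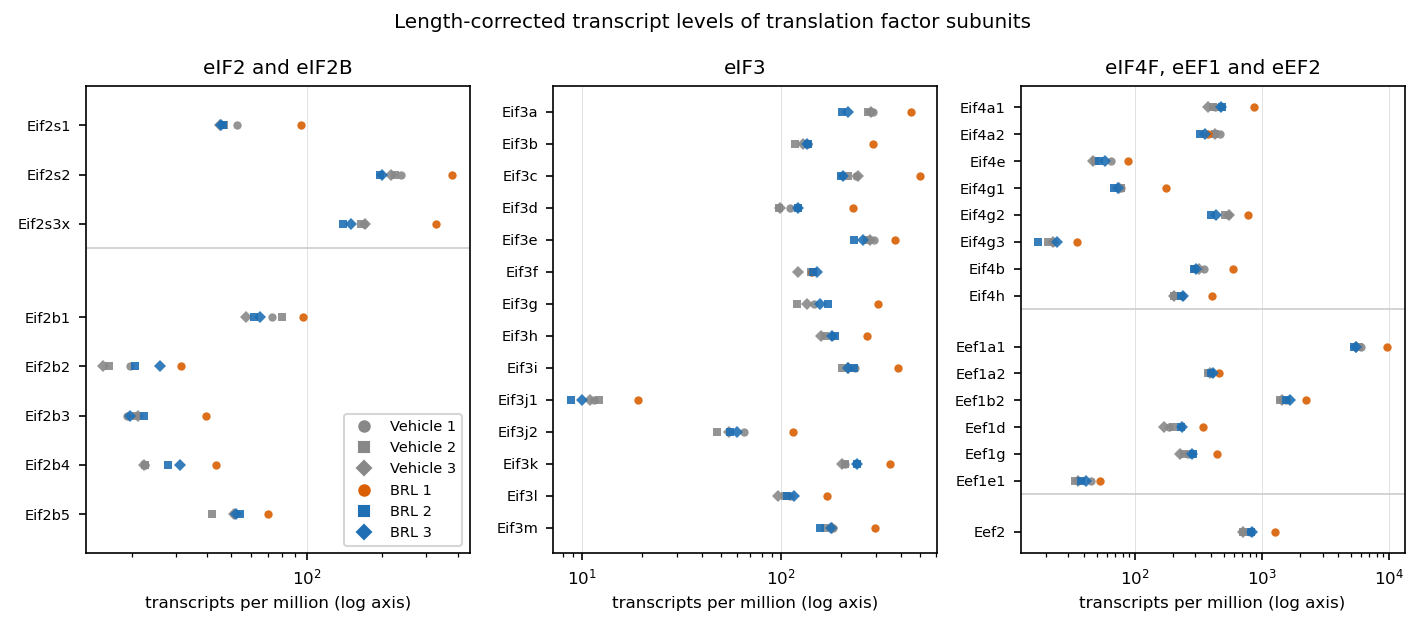
TPM values, corrected for transcript length by the authors' RSEM run and on a log axis, for each subunit of eIF2, eIF2B, eIF3, eIF4F with partners, eEF1 and eEF2, with 1 point per library. Values are shares of each library and were not rescaled between libraries, and BRL replicate 1 (orange) lies to the right for most subunits, Eif3f and Eif4a2 excepted; the order of subunits within a library is what can be read.

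In the cap-binding group the paralogous helicases of eIF4F lay on opposite sides of vehicle. Eif4a1 was at 483, 479 and 436 CPM in vehicle and at 764, 599 and 559 CPM in BRL. Eif4a2, which encodes the closely related helicase that works in the same place, was at 508, 496 and 492 CPM in vehicle and at 339, 409 and 425 CPM in BRL. For Eif4a1 each BRL library was above each vehicle library and for Eif4a2 each was below. With all 6 libraries neither passed in edgeR (Eif4a1 log2 fold change 0.46 ± 0.13 SE, adjusted p = 0.102; Eif4a2 −0.35 ± 0.11 SE, adjusted p = 0.121). Without BRL replicate 1 both passed, at 0.32 ± 0.07 and −0.25 ± 0.06 (log2 ± SE). Over 16 other settings Eif4a1 passed in 2 (adjusted p from 0.00647 to 0.363) and Eif4a2 in 1 (0.0129 to 0.356), and each kept its direction in all of them.

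The ratio of length-corrected levels within a library does not depend on how libraries are scaled. Eif4a1 over Eif4a2 came to 0.929, 0.959 and 0.877 in vehicle replicates 1 to 3 and to 2.30, 1.49 and 1.34 in BRL replicates 1 to 3. Eif4a2 was thus the more abundant transcript in every vehicle library and Eif4a1 in every BRL library. With 3 libraries against 3, an exact two-sided permutation p cannot be smaller than 0.10. The pair was drawn up after values had been seen, so its split is a description and no test is drawn from it. Counts of both genes are not whole, and exons of both overlap other annotated genes on the same strand, with Rfc4 on the other strand of Eif4a2, so the division of reads is less certain than for unique genes.

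Because these helicases differed in direction, their promoters are set side by side, in windows of 220 bases built as for Eif2b4 (RefSeq, GRCm38.p6; Eif4a1 at chr11:69672404-69672623, minus strand; Eif4a2 at chr16:23107268-23107487, plus strand). Capitals mark an E-box, CACGTG, the site known for MYC and related factors, found in Eif4a1 from position −189 to −184. None of the 3 motifs searched (E-box, ETS core and the cyclic AMP response element TGACGTCA) was found in the window of Eif4a2. In the wider windows described below, 12 genes held an E-box. Of these, Eef2, Eif3f, Eif3k, Eif4a1, Eif4h and Eif5a passed as higher without BRL replicate 1, and Eif3a and Eef2k passed as lower. Whether the motif has a part in the direction of a gene was not tested.
Eif4a1: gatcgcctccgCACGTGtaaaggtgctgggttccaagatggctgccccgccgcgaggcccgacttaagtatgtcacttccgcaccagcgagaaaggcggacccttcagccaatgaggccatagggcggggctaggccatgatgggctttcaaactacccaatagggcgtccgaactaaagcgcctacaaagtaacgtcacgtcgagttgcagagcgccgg
Eif4a2: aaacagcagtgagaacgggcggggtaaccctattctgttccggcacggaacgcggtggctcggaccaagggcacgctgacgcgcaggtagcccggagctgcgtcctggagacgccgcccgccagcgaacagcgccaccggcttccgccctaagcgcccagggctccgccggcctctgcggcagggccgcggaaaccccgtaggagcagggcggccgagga

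Of 10 ratios between related factors, the groups did not overlap in 5, and the others overlapped. In those 5 all BRL libraries were above all vehicle libraries, a direction set by which gene of the pair was put first. The pairs were drawn up after values had been seen, and Eif4g1 is in more than 1 of them. No share of split ratios over other gene pairs was worked out, so the count has no background beside it. Eif5a over Eif5a2 was 17.5, 18.6 and 17.8 in vehicle and 22.9, 27.0 and 21.4 in BRL. Eif1ax over Eif1a, which encode near-identical eIF1A proteins, was 1.12, 1.09 and 0.918 in vehicle and 1.53, 1.37 and 1.63 in BRL. Eif4g1 over Eif4g2 was 0.143, 0.150 and 0.137 in vehicle and 0.225, 0.174 and 0.170 in BRL. In these 3 pairs BRL replicates 2 and 3 lay above vehicle as BRL replicate 1 did. The counts of Eif5a, Eif1a and Eif4g2 are not whole, nor are those of Eif3j1 and Eif3j2, so these ratios are less certain. Eif3j2 over Eif3j1 also split, narrowly, at 3.89 to 5.75 in vehicle and 5.95 to 6.32 in BRL. The ratio of Eef1a1 to Eef1a2, the muscle and neuron form, was 15.2, 15.3 and 14.3 in vehicle against 21.1, 13.5 and 13.5 in BRL, with BRL replicate 1 on the other side of vehicle from replicates 2 and 3.

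**Figure D4:**
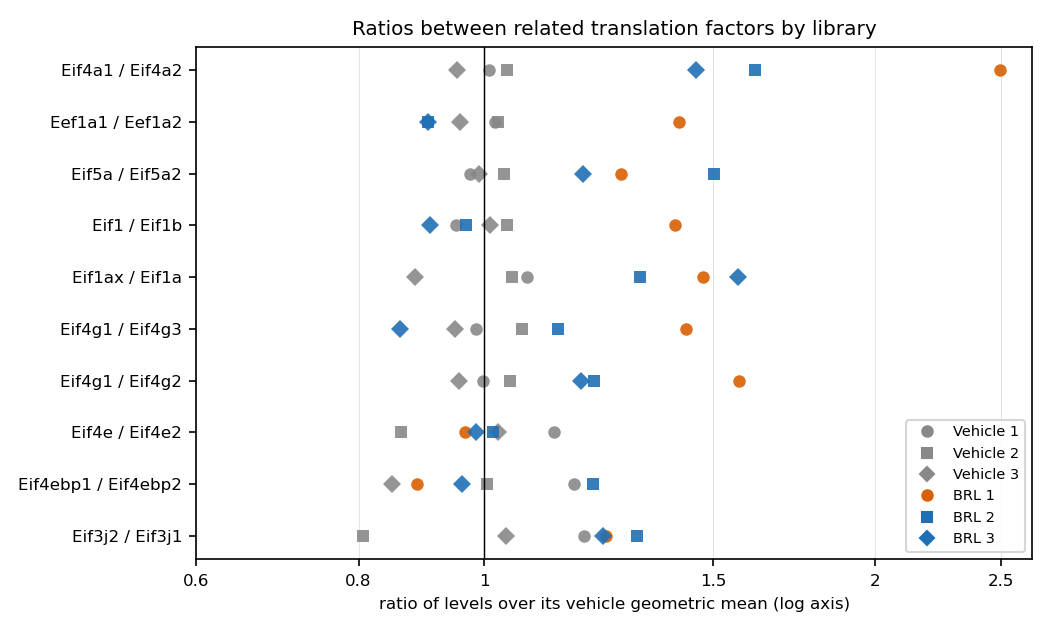
For 10 pairs of related translation factors, the ratio of their length-corrected levels in each library is divided by the geometric mean ratio of the 3 vehicle libraries and shown on a log axis. Eif4a1 over Eif4a2 has the widest gap between BRL (orange and blue) and vehicle (grey), and in 5 pairs no BRL point reaches the vehicle points.

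BRL replicate 1 was the highest library for the scaffold genes of eIF4F and for their relative Eif4g2. For Eif4g2, BRL replicates 2 and 3 lay below all vehicle libraries. Eif4g1, the canonical scaffold, was at 210.3, 177 and 203 CPM in vehicle and at 416, 209 and 224 CPM in BRL (log2 fold change 0.52 ± 0.25 SE, adjusted p = 0.25), and BRL replicates 2 and 3 were within or near the vehicle range. Eif4g2, a scaffold relative that lacks the eIF4E-binding part and serves cap-independent initiation, was at 1165, 1077 and 1099.7 CPM in vehicle and at 1386, 948 and 969 CPM in BRL. Its fold change was −0.02 ± 0.16 over all libraries, turned to 0.04 when libraries were scaled by their totals alone, and was −0.21 ± 0.07 without BRL replicate 1 (log2 ± SE). Per length, Eif4g2 was the most abundant of the 8 genes in this group in each vehicle library (515 to 548 TPM), and Eif4a1 in each BRL library (479 to 867 TPM). Eif4h, a helper of the helicase, was at 344, 318 and 315 CPM in vehicle and 474, 391 and 382 CPM in BRL, without overlap (log2 fold change 0.35 ± 0.11 SE, adjusted p = 0.125).

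Of the proteins that compete for eIF4E or resemble it, none passed in edgeR, at an unadjusted p under 0.05 or in DESeq2, and the groups overlapped for all 5 tested genes except Eif4e2. Eif4ebp1, the mTORC1-controlled repressor of eIF4E, was at 122, 114 and 113 CPM in vehicle and at 97.8, 153 and 113 CPM in BRL. Its highest and lowest libraries were both BRL libraries (log2 fold change 0.06 ± 0.16 SE, adjusted p = 0.867). Eif4e2, a cap-binding relative tied to translational repression, was at 86.1, 91.5 and 83.2 CPM in vehicle and at 108, 91.8 and 97.9 CPM in BRL (adjusted p = 0.31), with BRL replicate 2 barely above the highest vehicle library. Eif4ebp3 was near the limit of detection, at 0 to 3.60 CPM.

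Eif4a3 is named as an initiation factor but is the helicase at the core of the exon junction complex, which marks spliced messenger RNA. It was at 101, 105 and 109 CPM in vehicle and at 175, 143 and 134 CPM in BRL. The groups were well apart, with BRL replicate 1 highest (log2 fold change 0.52 ± 0.12 SE, edgeR adjusted p = 0.0599). It passed in 4 of 16 other settings, with adjusted p from 0.0021 to 0.243.

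Among the late initiation factors, Eif5a showed the highest log2 fold change of all 59 genes. The protein, which carries the amino acid hypusine and helps ribosomes past difficult peptide bonds, also acts in elongation. Its transcript was at 173, 169 and 169.9 CPM in vehicle and at 309.6, 231 and 221 CPM in BRL. Vehicle libraries were almost equal and every BRL library was higher (log2 fold change 0.57 ± 0.14 SE, edgeR adjusted p = 0.0627, and 0.000713 to 0.276 over the other settings, 4 of 16 past the threshold). Eif6, which keeps the large subunit from joining too early, was at 69.2, 55.8 and 62.6 CPM in vehicle and at 103, 85.5 and 72.5 CPM in BRL (log2 fold change 0.48 ± 0.15 SE, adjusted p = 0.112). Eif5, the GTPase activator of eIF2 and the most abundant of the group by reads, overlapped at 348, 333 and 339 CPM in vehicle and 386, 311 and 300.0 CPM in BRL.

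In elongation, all 6 genes of eEF1 had a positive log2 fold change, with a median of 0.18 (0.20 without BRL replicate 1). Eef1d was at 90.4, 96.7 and 85.5 CPM in vehicle and at 126, 129 and 118 CPM in BRL. The 3 BRL libraries lay close together and above all vehicle libraries, so BRL replicate 1 did not decide its direction. The log2 fold change was 0.45 ± 0.10 SE (edgeR adjusted p = 0.0479), between 0.41 and 0.50 over 16 other settings, of which 8 kept the adjusted p under 0.05 (0.00191 to 0.262). Eef1d shares exon sequence with Naprt on the same strand.

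The other subunits of the eEF1B exchange complex were likewise above vehicle in every BRL library. Eef1g was at 294, 289.5 and 272 CPM in vehicle and at 398, 371 and 346 CPM in BRL (log2 fold change 0.38 ± 0.10 SE, adjusted p = 0.0763). Eef1b2 was at 657, 607 and 611 CPM in vehicle and at 727, 739 and 719 CPM in BRL (0.22 ± 0.09, adjusted p = 0.216). Neither passed with all libraries, and both passed without BRL replicate 1. Eef1a1, the client of this complex, did overlap, at 6550.4, 6613 and 6255 CPM in vehicle and 8257, 6603 and 6470.2 CPM in BRL (0.14 ± 0.16, adjusted p = 0.658). Per length its transcript was 134 to 183 times as abundant as that of Eef1e1, the scarcest gene of the group, whose protein sits in the multi-tRNA synthetase complex.

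Eef2, the translocase, was at 1548, 1469.7 and 1454 CPM in vehicle and at 1926, 1823 and 1729 CPM in BRL. All BRL libraries were higher (log2 fold change 0.29 ± 0.11 SE, edgeR adjusted p = 0.174), and 1 of 16 other settings, the fit without BRL replicate 1, put it past the threshold (adjusted p 0.0206 to 0.467). Eef2k, the kinase that inhibits eEF2, ran the other way, at 61.0, 59.3 and 66.1 CPM in vehicle and at 59.3, 45.1 and 52.3 CPM in BRL. BRL replicate 1 only just failed to overlap vehicle, and the log2 fold change was −0.25 ± 0.12 SE (adjusted p = 0.266), or −0.34 ± 0.09 without that library. The methyltransferases Eef1akmt1, Eef1akmt2 and Eef2kmt were low, at 3.81 to 15.2 CPM, and overlapped.

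The promoter of Eef2 is printed for its motifs, in the same kind of window (RefSeq, GRCm38.p6, chr10:81176431-81176650, plus strand). Capitals mark an E-box from −43 to −38 and, at positions 3 to 10 from the start site, a full cyclic AMP response element. This is the site through which β-adrenergic signalling is known to reach genes by way of CREB. The element was about as frequent among translation factors as among all genes (2.13% against 2.03%, in the wider windows below). Its part in the level of Eef2, which did not pass with all 6 libraries, was not tested.
Eef2: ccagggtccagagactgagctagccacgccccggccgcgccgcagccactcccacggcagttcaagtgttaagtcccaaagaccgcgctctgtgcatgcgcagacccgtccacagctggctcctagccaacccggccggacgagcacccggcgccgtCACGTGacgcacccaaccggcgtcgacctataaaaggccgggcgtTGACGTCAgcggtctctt

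Windows from 250 bases before to 50 after the start were at hand for 47 of the 62 genes, not including Eef1d and Eef1g, and were searched on both strands for the 3 motifs, which were chosen after values had been seen. The cyclic AMP response element TGACGTCA occurred in 1 of the 47, Eef2 (2.13%, against 2.03% of 27025 genes). An E-box CACGTG occurred in 12 (25.5%, against 8.09%) and the ETS core CCGGAAG in 16 (34.0%, against 9.93%). The 27025 genes were taken whether or not they had reads here, and only 12047 genes had enough reads for the test. Translation factors were not set against other expressed genes, so these differences cannot be called particular to them. The median log2 fold change was 0.26 for the 12 genes with an E-box and 0.16 for the 34 tested genes without, and 0.21 and 0.14 with and without the ETS core. A match describes letters in the window and does not show that a factor binds there.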

How the data were processed

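RNA-seq libraries of 3 vehicle and 3 BRL samples were made with the Illumina TruSeq RNA kit per the labels' protocols, and groups and replicate numbers come from the sample titles. The authors deposited RSEM expected counts per gene and, beside them, an RSEM fraction per gene that sums to 1 in each library. Per the submitters' processing notes, cutadapt, RSEM 1.17, Bowtie and edgeR were used with the genome build NCBIM37 (settings: not given in the sources used here). RSEM divides a read that maps to several loci among them, and 29 of the 59 tested translation factors had counts that were not whole within 0.005, so these are less certain. Exons of 24 translation factors overlap another annotated gene.

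The rounded counts were fitted with edgeR 4.0.16 in R 4.3.3 (genes kept by filterByExpr at 10 counts, TMM factors, quasi-likelihood F-test on group alone). P-values were adjusted by Benjamini-Hochberg across 12047 genes, with a threshold of 0.05. Standard errors were derived from the fold change and F. CPM values carry the TMM factors. TPM values are the deposited fraction times 1000000, are corrected for transcript length and were compared within libraries only. The symbols followed the supplied names (88.4% of genes); GENCODE M21, of another build, served for gene types, exon overlap and transcript matches only. Of 79 symbols with the pattern, 10 pseudogenes, 4 eIF2 kinases, 1 gene that is not protein-coding and 2 symbols not used here left 62. The promoter table is of GRCm38.p6 and no position was carried between builds. The totals of 4440168 to 8332472 counts put 3 counts at 0.367 to 0.673 CPM, which covers counting error only.

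The genes, complexes, lists and motifs were chosen with earlier results of these data known, so no test over a list was made, and medians and counts are descriptions beside those of all genes. Values by library are given for genes past the threshold and, in each complex, for the gene of smallest p and the gene of highest mean CPM; other genes named were chosen after their values were seen. Of the other translation genes, those past the threshold and the 2 of smallest p per list are named. The alternatives were DESeq2 1.42.0, limma-voom (limma 3.58.1), RLE and upper-quartile factors, library totals alone, no filter on low counts, a minimum count of 20, the replicate number as a block, each library left out and counts summed with named copies. A further one, summing with pseudogenes whose transcripts BLAST 2.17.0 matched (97% identity, 100 bases or more), was chosen after seeing the data. The test was tried on simulated counts before use. No library was set apart in them as BRL replicate 1 is, so that trial cannot show how the calls depend on it.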

Additional observations from a re-analysis of the deposited data

How the results depend on the processing

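Depth (4440168 to 8332472 counts per library) and BRL replicate 1 limit these results. With each library left out in turn, translation factors that rose numbered 0 to 16 and those that fell 0 to 5, and over all genes 17 to 1240 rose and 15 to 1315 fell. The highest of each came without BRL replicate 1; without any of the other 5 libraries no translation factor passed, with 10 to 20 higher and 1 lower at an unadjusted p under 0.05. The number that rose was 7 with DESeq2 and 6 with no filter on low counts, and 0 with limma-voom, library totals alone and the replicate block (18, 14 and 17 higher at an unadjusted p under 0.05). Over all genes, 246 rose and 355 fell with DESeq2, 282 rose and 330 fell with no filter, 77 rose with library totals alone and 63 rose with the replicate block. The cause of these shifts was not tested. No label says that the replicate numbers pair the libraries, so the fit without the block was kept for the report's tests. The block is 1 of the 16 other settings. Deviations from the group means correlated at 0.10, −0.02 and −0.02 between libraries of the same number. With so few libraries and BRL replicate 1 apart from its group, these values cannot decide whether the libraries are paired. The median log2 fold change of all translation factors stayed between 0.11 and 0.24, and no scaling turned the sign of a complex's median or moved the median of all genes by more than 0.041. Summing with pseudogene copies left the same 2 calls.

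Among the 21 genes named by rule, 12 of their fits under the alternatives turned direction, none of them for a gene that had passed. When a library was left out, Eif2s3x ranged from −0.08 to 0.29, Eif3a from −0.31 to 0.02, Eif4g2 from −0.21 to 0.08, Eif4ebp1 from −0.15 to 0.19 and Eif5 from −0.15 to 0.04 (log2). With library totals alone Eif4g2 came to 0.04 and Eif5 to 0.01, and with no filter Eif4g2 came to 0.01.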

Other observations

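Of 58 other genes of translation and its control in 6 lists, 56 were tested, 2 rose and 0 fell in edgeR (adjusted p under 0.05, against 1.01% and 1.79% of all genes). At an unadjusted p under 0.05, 8 were higher and 2 lower, against 11.6% and 10.8% of all genes, and the median log2 fold change was 0.13. Tufm, the mitochondrial counterpart of eEF1A, rose from 72.6, 69.2 and 75.8 CPM in vehicle to 102, 103 and 93.8 CPM in BRL (log2 fold change 0.46 ± 0.09 SE, adjusted p = 0.0455). The mitochondrial list held 9 further genes, none past the threshold; Guf1, a mitochondrial elongation factor of the EF4 kind, was at 50.1, 39.7 and 46.0 CPM in vehicle and 35.0, 32.8 and 31.6 CPM in BRL (−0.45 ± 0.12, adjusted p = 0.0813). Akt1s1, an inhibitory partner of mTORC1 also known as PRAS40, rose from 38.1, 36.7 and 35.1 CPM to 63.9, 54.0 and 48.5 CPM (0.60 ± 0.13, adjusted p = 0.0477). In both genes that rose, the BRL libraries were all above vehicle, and in Guf1 they were all below.

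The eIF2 kinases and phosphatase regulators had a median of 0.22 and no call among 7. Ppp1r15a, the stress-induced subunit that directs a phosphatase to eIF2, was at 256, 217 and 208 CPM in vehicle and 269.9, 389 and 309 CPM in BRL (0.51 ± 0.15, adjusted p = 0.103), and Eif2ak1, the haem-regulated eIF2 kinase, at 49.5, 46.7 and 48.4 CPM against 56.4, 60.2 and 58.6 CPM (0.28 ± 0.09, adjusted p = 0.138). Dohh, which completes hypusine on eIF5A, was at 13.7, 11.5 and 15.4 CPM in vehicle and 23.0, 22.7 and 18.7 CPM in BRL (0.66 ± 0.16, adjusted p = 0.067), and Pelo, a ribosome rescue factor, at 24.9, 20.6 and 23.5 CPM against 30.3, 35.6 and 29.4 CPM (0.47 ± 0.13, adjusted p = 0.0922). All 4 had every BRL library above vehicle, but they were picked by smallest p, which favours such a split. The second gene by p of the mTORC1 list, Rps6kb1, had a log2 fold change of −0.34. Mcts1 of the scanning and recycling list had −0.35 and Dph2 of the diphthamide list 0.38, none past the threshold. Every BRL library lay below vehicle for Rps6kb1 and Mcts1, and above it for Dph2. Of the 56 tested genes of all 6 lists, 13 lay above vehicle in every BRL library and 4 below. The shares over all genes were 16.0% and 15.5%. The poly(A)-binding list had a median of 0.07 over 6 genes, and its smallest adjusted p, 0.548, was that of Paip2b.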
